A study of Mus musculus with 12 samples.

Results

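Genes of intestinal calcium absorption and vitamin D action were followed across 12 bulk RNA-seq libraries of mouse intestine. The set held 6 genes of the 47643 in the deposited table, namely S100g, Trpv6, Vdr, Cyp24a1, Atp2b1 and Trpm6. It was named for a known pathway and picked because S100g was higher in knockout than in control libraries on a high-fat diet. That difference is therefore a description here and carries no test. Of the 6 genes, 4 had enough counts to be tested, and Trpv6 and Cyp24a1 did not.

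The libraries came from male C57BL/6 mice, 7 to 8 weeks old, fed for 10 days on chow or on a diet labelled 60% HFD. Pparafl/fl mice have a floxed Ppara gene and are called WT, as in the sample titles. PparaΔIE mice are called KO, and the name denotes deletion of that floxed gene from intestinal epithelial cells, so both genotypes share the floxed allele. WT chow, KO chow, WT HFD and KO HFD had 3 libraries each. The segment of intestine, the Cre line and the exons removed are not stated in the labels. Nor is it stated that each library is a different mouse, so the p-values refer to variation among these samples, and part or all of it may be technical.

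Calcium crosses the enterocyte by entry, carriage and export. TRPV6 is the apical entry channel, S100G (calbindin of the small, cytosolic type) carries calcium through the cell, and ATP2B1 is the plasma membrane pump on the basolateral side. The hormonal form of vitamin D binds the nuclear receptor VDR, which pairs with a retinoid X receptor and raises transcription of genes such as Trpv6, S100g and Cyp24a1. CYP24A1 breaks the hormone down and so closes the loop, and TRPM6 is an apical channel for magnesium. In the mouse this pathway is known to be strongest in the duodenum. PPARA, the receptor whose gene is deleted from intestinal epithelial cells in KO mice, also pairs with retinoid X receptors and is activated by fatty acids.

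Total expected counts ran from 33621040 to 53959405 per library. Ppara, the targeted gene, measured 18.1 to 22 CPM (counts scaled to library size, 1 CPM being 32.7 to 52.8 counts) in WT chow, 8.42 to 15.6 in KO chow, 33.7 to 39.3 in WT HFD and 11.1 to 17.3 in KO HFD, and each KO group lay below the WT group on its diet. The log2 fold change of Ppara for KO against WT was -0.68 on chow, which did not pass (edgeR adjusted p = 0.251), and -1.46 on HFD (adjusted p = 0.0308). Ileal markers were abundant, with the bile acid transporter gene Slc10a2 at a mean of 1150 to 1220 CPM in the 4 groups. They were not all even, since Fgf15 had means of 14.9 CPM in WT chow, 64.5 in KO chow, 103 in WT HFD and 114 in KO HFD. The 6 proximal small intestine markers were mixed. Pdx1, a duodenal factor gene, did not exceed 0.174 CPM and Onecut2 did not exceed 0.693 CPM in any library, whereas Slc40a1, the iron exporter gene, ran from 65 to 201 CPM and Lct, the lactase gene, from 0.453 to 256 CPM. KO chow 3 lay between KO chow 1 and 2 for 99.3% of 146 genes that differed at least 2-fold between those libraries. Only genes with a mean of at least 5 CPM were used. The corresponding share was 88.2% for WT chow 1, on only 17 genes, and 3.03% to 81.1% for the remaining libraries. WT chow libraries were the most alike, with a biological coefficient of variation of 0.0583 against 0.14 to 0.152 in the other groups. Results are therefore also given without WT chow 1 and KO chow 3.

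The start of S100g is shown because S100g is the gene whose level differed by genotype, and that of Trpv6 because both are classical vitamin D target genes. Each window runs from 250 bases before to 50 bases after the annotated start on the gene's own strand (RefSeq, GRCm38.p6), chrX:162964550-162964849 for S100g and chr6:41636356-41636655 for Trpv6, both on the minus strand. Capitals mark AGGTCA, the half-site bound by many nuclear receptors, or its complement TGACCT, and TATAAA.
S100g: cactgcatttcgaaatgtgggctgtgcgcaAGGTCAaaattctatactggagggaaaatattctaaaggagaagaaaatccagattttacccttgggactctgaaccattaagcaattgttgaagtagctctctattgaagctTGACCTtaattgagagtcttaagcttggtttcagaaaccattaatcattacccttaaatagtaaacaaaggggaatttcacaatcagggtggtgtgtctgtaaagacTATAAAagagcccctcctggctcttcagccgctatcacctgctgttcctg
Trpv6: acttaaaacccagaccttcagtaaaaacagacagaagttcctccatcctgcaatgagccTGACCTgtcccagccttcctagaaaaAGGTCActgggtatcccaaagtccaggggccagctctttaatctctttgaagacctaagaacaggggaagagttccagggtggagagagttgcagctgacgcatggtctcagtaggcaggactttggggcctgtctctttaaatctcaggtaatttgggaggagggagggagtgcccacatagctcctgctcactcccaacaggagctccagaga
In S100g the half-sites begin at -220 and -107 and TATAAA begins at the annotated start itself. In Trpv6 they begin at -191 and -165. Among 32851 promoter windows of this length, 16.3% hold AGGTCA and 13.6% hold TATAAA on either strand. The DR3 vitamin D response element and the DR1 PPAR response element, each a pair of half-sites at the spacing their names give, and CAATAAA were searched on both strands as well. They were held by 0.0396%, 0.0639% and 4.6% of the windows, and none of these 3 motifs was in the 6 windows of S100g, Trpv6, Vdr, Atp2b1 and Trpm6. Only matches to fixed patterns within these windows counted, so variant sites and sites farther away would be missed. With shares this low, absence from 6 windows was likely for any genes, and nothing is read from it. The table used had windows for 5 of the 6 genes, Cyp24a1 being the sixth.

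S100g (chromosome X, 162961992 to 162964599, mm10) has 3 exon blocks that sum to 480 bases. Its level was 6.98, 7.36 and 7.38 CPM in WT chow, and 10.1, 8.88 and 8.63 CPM in KO chow. On HFD it was 4.82, 4.04 and 4.58 CPM in WT, and 9.14, 8.10 and 9.78 CPM in KO. The WT HFD libraries were the lowest of all 12, and every KO library on either diet lay above every WT library. The HFD part of this separation entered the choice of the gene. The share of all genes separated in this way over the 12 libraries was not counted. Group means fell in the order KO chow (9.21 ± 0.802 CPM), KO HFD (9.01 ± 0.848), WT chow (7.24 ± 0.226) and WT HFD (4.48 ± 0.398; SD, n = 3 each). KO chow and KO HFD overlapped, while the other neighbours in this order did not. These levels rest on 163 to 390 counts per library, for which counting error alone is 7.83% to 5.06%.

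The difference that chose the set was 2.01-fold, a log2 fold change of 1.01 (SE 0.12) for KO against WT on HFD. Leaving out each library in turn gave 0.93 to 1.08, and leaving out WT chow 1 and KO chow 3 together gave 0.997. Over all tested genes the HFD genotype groups did not overlap for 18%, 9.27% higher in KO and 8.7% lower. Smooth muscle markers also stood apart in these groups. Their summed level was 93.2 to 120 CPM in KO HFD and 36.6 to 72.8 CPM in WT HFD over all 10 markers, none of which was at 0 in any library. Paneth cell markers summed to 2460 to 2520 CPM in KO HFD and 3080 to 4590 CPM in WT HFD over 7 genes. With the smooth muscle score as a covariate the S100g difference was 0.84 (SE 0.19). That fit called 1541 genes in all for this comparison, against 51 without the score. With the proximal small intestine score the S100g difference was 1.001 (SE 0.111). The summed markers of mature enterocytes, the cells that make S100G, overlapped between these groups, at 33300 to 43000 CPM in KO HFD and 35600 to 42700 CPM in WT HFD. Of the 10 markers, 8 had a lower fitted level in KO HFD, 3 had an unadjusted p under 0.05, and Treh, the trehalase gene, was called lower (log2 fold change -0.58, edgeR adjusted p = 0.0308). Apoa1 was also lower without overlap (-0.30, adjusted p = 0.263). The part of these markers in the S100g difference was not tested. In bulk tissue, fewer cells of a type and less RNA per cell cannot be told apart.

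On chow, whose libraries took no part in choosing the set, all 3 KO libraries were above all 3 WT libraries for S100g. The log2 fold change was 0.35 (SE 0.11), and it did not pass edgeR's quasi-likelihood test (adjusted p = 0.241, and 0.154 to 0.886 over 21 other settings). Groups did not overlap in this comparison for 22.1% of all 17602 tested genes, 10% higher in KO and 12.1% lower. Between diets, S100g was lower on HFD in WT by a log2 fold change of -0.69 (SE 0.12) and differed by -0.03 (SE 0.11) in KO. Both diet differences use HFD libraries that entered the choice of the gene and are given without a test, as is the genotype by diet term of 0.66 (SE 0.16). With the proximal small intestine score as a covariate the WT diet difference was -0.53.

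S100g lies within the span of Ctps2, a CTP synthase gene on the opposite strand, and their annotated exons share 0 bases. The strand setting of the counting is not given in the sources used here, so Ctps2 was read alongside. It measured 8.86 ± 0.647 CPM in WT chow, 8.61 ± 1.68 in KO chow, 7.80 ± 0.689 in WT HFD and 7.04 ± 0.674 in KO HFD (SD, n = 3 each). On HFD its libraries overlapped between genotypes, and the log2 fold change was -0.15 (SE 0.14), opposite in sign to that of S100g.

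**Figure D1:**
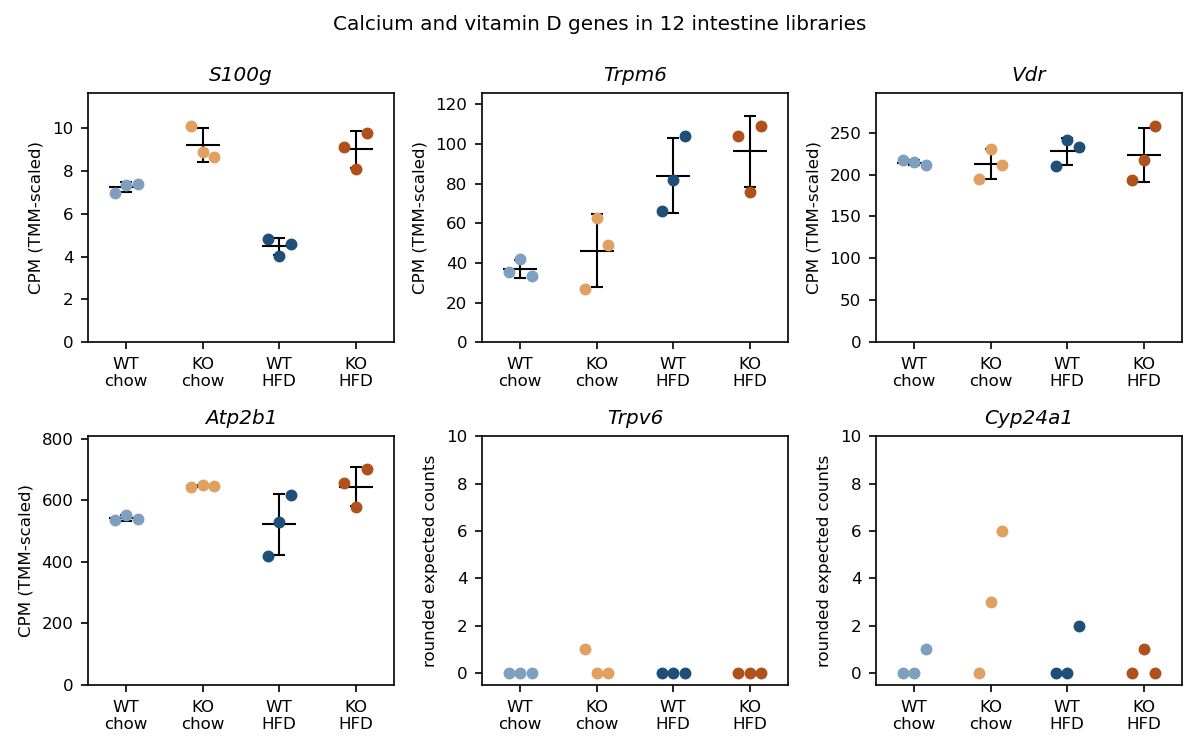
Levels of the 6 genes in each library (points), with the group mean and SD as bars for the 4 tested genes in CPM on axes that start at 0. Trpv6 and Cyp24a1 are shown as rounded expected counts. S100g is lowest in WT HFD (4.04 to 4.82 CPM), Trpm6 is higher in both HFD groups, and Trpv6 and Cyp24a1 never exceed 1 and 6 counts.

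Entry and breakdown stood at the floor. Trpv6 (chromosome 6, 41620624 to 41636405) had 1 count in KO chow 1 and 0 in the other 11 libraries. A count of 0 allows up to 3 counts, or 0.0568 to 0.0917 CPM depending on the library, for counting error only. Its close relative Trpv5, mainly a renal channel, was at 0 in all 12 libraries. Cyp24a1 (chromosome 2, 170482708 to 170497145) had 13 counts in all, with 3 and 6 in KO chow 2 and 3, 1 in WT chow 3, 2 in WT HFD 3, 1 in KO HFD 2 and 0 in the other 7. It shares 83 of its 3560 exon bases with Pfdn4 on the opposite strand, which had 96 to 179 counts. No difference between groups was detectable at this depth for either gene.

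Vdr (chromosome 15, 97854425 to 97910630), the receptor itself, was measured at 217, 215 and 211 CPM in WT chow and 195, 231 and 211 CPM in KO chow. On HFD it was 210, 241 and 233 CPM in WT and 194, 217 and 258 CPM in KO. All 4 groups overlapped. The log2 fold change was -0.01 (SE 0.10) for KO against WT on chow (edgeR adjusted p = 0.968). It was 0.09 for HFD against chow in WT (adjusted p = 0.618) and 0.07 in KO (adjusted p = 0.725), each with SE 0.10. On HFD, KO differed from WT by -0.03 (SE 0.10).

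Atp2b1 (chromosome 10, 98914406 to 99026143), the calcium export pump, was the most abundant of the set by CPM. WT chow measured 535, 553 and 541 CPM and KO chow 642, 649 and 647 CPM. WT HFD measured 419, 530 and 616 CPM and KO HFD 655, 577 and 703 CPM. KO chow lay above WT chow without overlap, while the HFD groups overlapped because WT HFD 3 was above KO HFD 2. On chow the log2 fold change was 0.25 (SE 0.12) and did not pass (edgeR adjusted p = 0.379, and 0.112 to 0.886 over the 21 other settings). On HFD KO differed from WT by 0.31 (SE 0.12), a value that ran from 0.17 without WT HFD 1 to 0.44 without WT HFD 3. It was 0.71 with the smooth muscle score as a covariate, in the fit that called 1541 genes. The diet differences were -0.06 in WT (adjusted p = 0.784) and 0.00 in KO (adjusted p = 0.994), each with SE 0.12.

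Trpm6 (chromosome 19, 18749983 to 18892511), the magnesium channel, differed by diet. It measured 35.2, 42.0 and 33.5 CPM in WT chow and 66.2, 81.7 and 104 CPM in WT HFD. In KO it measured 26.8, 62.8 and 49.1 CPM on chow and 104, 75.7 and 109.0 CPM on HFD. All 6 HFD libraries lay above all 6 chow libraries, a separation whose share over all genes was not counted. The means were 36.9 ± 4.51, 46.2 ± 18.2, 83.9 ± 18.9 and 96.1 ± 17.9 CPM in WT chow, KO chow, WT HFD and KO HFD (SD, n = 3 each). In WT the rise was 2.28-fold (log2 fold change 1.19, SE 0.30, edgeR adjusted p = 0.0304). In KO the log2 fold change was 1.06 (SE 0.30) and did not pass (adjusted p = 0.06). The genotype by diet term was -0.13 (SE 0.41). KO against WT gave 0.33 (SE 0.30, adjusted p = 0.67) on chow, with 0.037 without KO chow 2 and 0.607 without KO chow 1. On HFD it gave 0.20 (SE 0.29), with 0.051 without WT HFD 1 and 0.378 without WT HFD 3. With the smooth muscle score as a covariate, in the fit that called 1541 genes, it gave 0.967.

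In WT, HFD against chow called 13.4% of all tested genes, 6.8% higher and 6.57% lower. Of the 4 tested genes of the set it called 2, Trpm6 higher and S100g lower, and nothing is read from S100g here. In KO it called 8.2% of all genes, 3.44% higher and 4.76% lower, and 0 of the 4 (edgeR, 1 with an unadjusted p under 0.05, and 1 by DESeq2). The separation of groups seen for Trpm6 was common, since groups did not overlap for 37.9% of all genes in WT, 19.3% higher and 18.6% lower, and for 25.8% in KO, 12.7% higher and 13.1% lower. Over left-out libraries the Trpm6 difference in WT ran from 1.005 to 1.313, and the count of calls over all genes from 895 to 3089 against 2353. Its WT call was lost without WT chow 1 (adjusted p = 0.105), WT chow 2 (0.0657), WT chow 3 (0.11), WT HFD 2 (0.0707) or WT HFD 3 (0.0978), and without WT chow 1 and KO chow 3 together (0.148). It was also lost without the filter on low counts (0.0635) and with the smooth muscle score as a covariate (0.79, 0.184). In KO the difference passed in 4 of 21 other settings, namely without KO chow 2 (log2 fold change 1.34, adjusted p = 0.0228), by DESeq2 (1.05, 0.00609), with a filter of 50 counts in 3 libraries (1.06, 0.0431) and with the smooth muscle score (1.66, 0.0299). Over left-out libraries it ran from 0.758 (without KO chow 1) to 1.338.

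The proximal small intestine score, the mean centred log2 level of 6 markers, was -0.66 to -0.555 in WT chow and -0.015 to 0.601 in WT HFD. These groups did not overlap, but Lct was the only one of the 6 markers called in WT (log2 fold change 6.15, edgeR adjusted p = 0.028). Gata4 and Cybrd1 had 1.24 and 0.42, while Onecut2 and Slc40a1 had -0.66 and -0.63, none of which passed (adjusted p 0.136 to 0.359). The 5 distal ileum markers scored -0.377 to -0.221 in WT chow and 0.023 to 0.278 in WT HFD, also without overlap. Fgf15 alone of these was called in WT (log2 fold change 2.79, edgeR adjusted p = 0.0245). Of the 5, 3 had a lower fitted level on HFD. Fgf15 measured 15.1, 109 and 69.3 CPM in KO chow 1, 2 and 3. Whether the libraries came from different stretches of gut was not tested. In KO chow the proximal score was -0.8, 0.33 and 0.194 for libraries 1, 2 and 3. From lowest to highest this is the same order as Trpm6 (26.8, 62.8 and 49.1 CPM). Within WT HFD the order was the opposite, with scores of 0.601, 0.503 and -0.015 beside 66.2, 81.7 and 104 CPM of Trpm6. KO HFD scores were -0.056, 0.702 and 0.383, and the library with the highest score had the lowest Trpm6 (75.7 CPM). Lct rose from 2.01 to 2.75 CPM in WT chow to 76.2 to 256 CPM in WT HFD, and was 0.453 CPM in KO chow 1 against 102 CPM in KO chow 2. The summed level of the 6 markers was 121 to 151 CPM in WT chow, 206 to 214 in KO chow, 184 to 331 in WT HFD and 204 to 286 in KO HFD, and Pdx1 was at 0 in some libraries. With the proximal score as a covariate the WT difference in Trpm6 was 0.92 (adjusted p = 0.423), in a fit that called 72 genes in all. Mature enterocyte markers were also higher in WT HFD (35600 to 42700 CPM summed) than in WT chow (29800 to 30200), with 4 of 10 risen. Their part in the result was not tested.

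**Figure D2:**
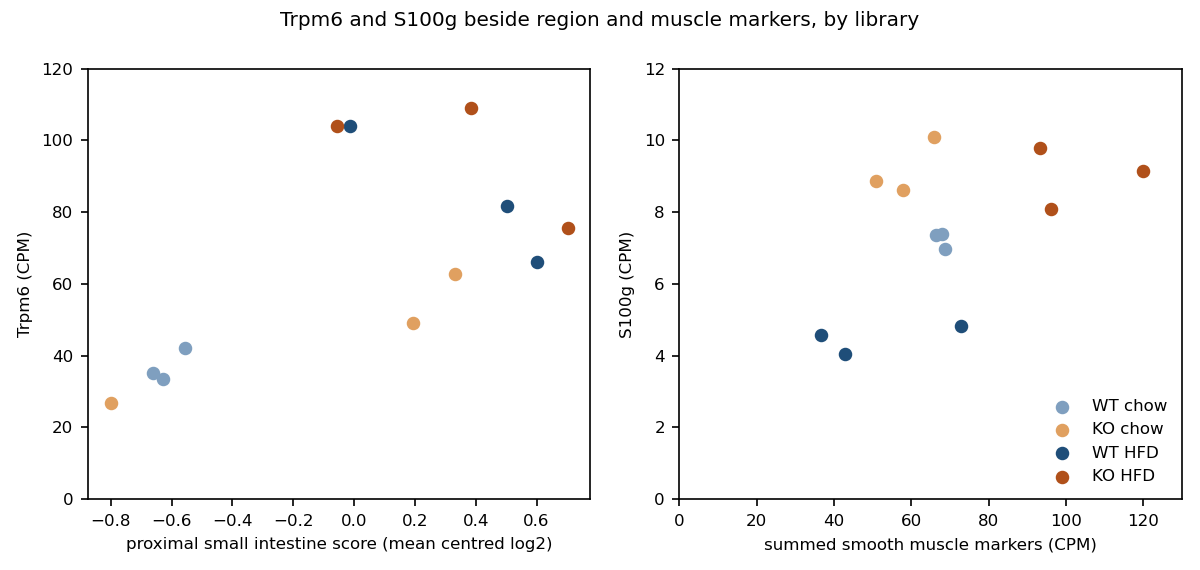
Left, Trpm6 in CPM against the proximal small intestine score of each library; right, S100g in CPM against summed smooth muscle markers in CPM, with 1 point per library coloured by group. KO chow 1 has the lowest score (-0.8) and the lowest Trpm6 (26.8 CPM), and the 3 KO HFD libraries have the highest muscle sums (93.2 to 120 CPM).

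**Figure D3:**
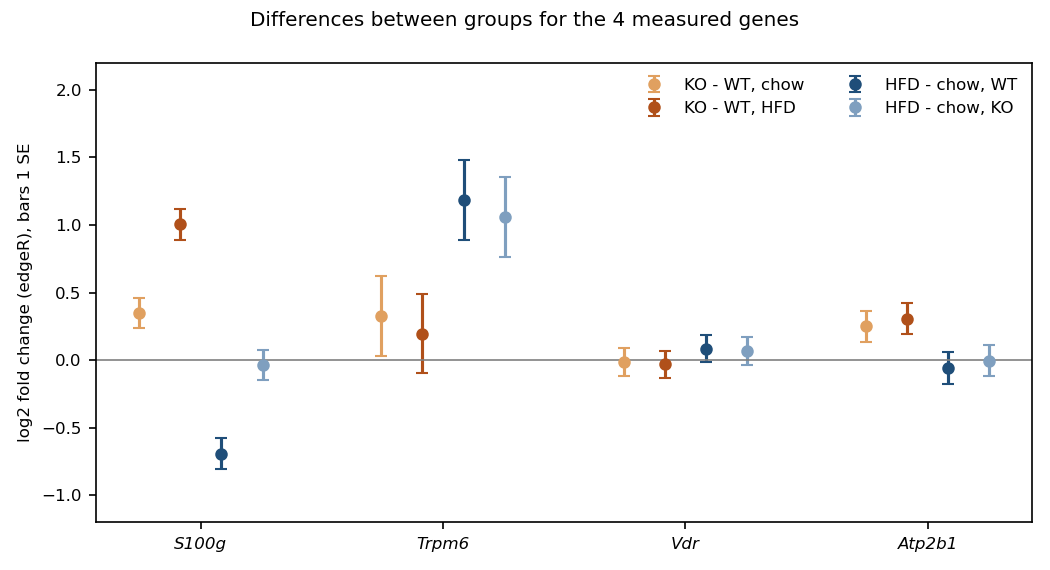
Log2 fold changes with SE bars for the 4 genes that were tested, in the 4 pairwise comparisons. The values farthest from 0 are those of Trpm6 between diets (1.19 in WT and 1.06 in KO) and of S100g. S100g has 1.01 in KO against WT on HFD and -0.69 in HFD against chow in WT. For KO against WT, S100g has 0.35 on chow, Atp2b1 0.25 on chow and 0.31 on HFD, and Trpm6 0.33 and 0.20. Vdr stays between -0.03 and 0.09.

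Levels can be set between genes only per length of exon, here the union of annotated exons (480 bases for S100g, 15218 for Atp2b1). The transcripts present and the fragment length were not taken into account, so the order of the genes is approximate. Per kilobase, Vdr stood at a mean of 38.8 CPM over the 12 libraries, Atp2b1 at 38.7, S100g at 15.6 and Trpm6 at 8.52. Vdr and Atp2b1 overlapped (34.3 to 45.7 and 27.5 to 46.2 CPM per kilobase), S100g ran from 8.43 to 21.1 and Trpm6 from 3.47 to 14.1. In WT HFD the means of S100g (9.34 ± 0.829) and Trpm6 (10.9 ± 2.45) differed by less than the spread, whereas S100g stood above Trpm6 in every library of the other 3 groups, with KO HFD means of 18.8 ± 1.77 and 12.5 ± 2.32 (SD, n = 3 each).

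Patterns most like each gene were sought by the root mean square difference of centred log2 levels over the 12 libraries, among 11534 other genes. For S100g the nearest were Rasl12 (0.197), Ccdc125 (0.204), Muc3a (0.214), Oas2 (0.222) and Zfp513 (0.232), where the median over all candidates was 0.432. Their means had WT HFD lowest, which is no independent result because likeness to S100g picked them. Rasl12 had 5.39, 5.86, 3.40 and 5.54 CPM in WT chow, KO chow, WT HFD and KO HFD. Muc3a, a membrane mucin gene, had 23.3, 29.2, 18.4 and 24.9 CPM in that order. For Trpm6 the nearest were Foxq1 (0.17), a forkhead factor gene, Cubn (0.215) and Col6a4 (0.224), against a median of 0.686. For Atp2b1 they included Clec2h (0.085) and Ptprd (0.086), and for Vdr they were Aspscr1 (0.047), Ube2r2 (0.05) and Sertad2 (0.05), against medians of 0.26 and 0.202.

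A further 55 genes of calcium, magnesium and vitamin D biology were listed by function, and 44 of them were tested. The other 11 were at low counts. They include Calb1, the larger calbindin (0 to 0.0101 CPM as group means), Cyp27b1, the enzyme that activates vitamin D (0.0614 to 0.134), Gc, the plasma carrier of vitamin D (0 to 0.0188), and Casr, the calcium-sensing receptor (0.131 to 0.313).

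For KO against WT on chow, edgeR called 0.125% of all tested genes, 0.0795% higher and 0.0454% lower, and 0 of these 44 (8 had an unadjusted p under 0.05, and DESeq2 called 3). It called 0 of the 4 tested genes of the main set (2 with an unadjusted p under 0.05, and 0 by DESeq2). The median log2 fold change of the 44 was 0.07, against 0.00 over all genes. Cyp3a11, a cytochrome P450 that hydroxylates vitamin D and bile acids, measured 3.40 ± 0.114 CPM in WT chow and 7.97, 34.5 and 23.7 CPM in KO chow 1, 2 and 3 (log2 fold change 2.70, SE 0.45, adjusted p = 0.076). Cyp3a25 measured 22.2 ± 0.334 and 47.5 ± 12.5 CPM (1.10, SE 0.18, adjusted p = 0.0525). Reads of Cyp3a genes can be shared among near copies. Without KO chow 1, 5 of the 44 were called, while calls over all genes rose from 22 to 517.

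On HFD, where 0.29% of genes differed between genotypes, 0.102% higher in KO and 0.187% lower, edgeR called 0 of the 44 (4 with an unadjusted p under 0.05, and 2 by DESeq2) and S100g alone among the 4, or 0 of the 4 when only the HFD groups were fitted. In that fit S100g had a log2 fold change of 1.007 and calls over all genes numbered 6 against 51. Nothing is read from this count, since the same comparison chose the set. The manganese exporter gene Slc30a10, another vitamin D target, measured 30.5, 44.8 and 31.7 CPM in WT HFD and 55.3, 47.1 and 56.3 CPM in KO HFD. These groups did not overlap, as for 18% of all tested genes (log2 fold change 0.57, SE 0.15, edgeR adjusted p = 0.142). Slc30a10 was singled out after its value was seen, from a list of 9 vitamin D target and phosphate transport genes. Of that list, 4 had a higher and 5 a lower fitted level in KO HFD (median log2 fold change -0.03). The pump gene Atp2b4, picked in the same way, measured 5.55 ± 0.575 CPM in WT HFD and 7.82 ± 0.661 in KO HFD (0.49, SE 0.13, edgeR adjusted p = 0.141). Of the 4 tested genes in its list of calcium export, 2 were higher and 2 lower in fitted level. For the genotype by diet term, 0.00568% of genes were called, and 0 of the 44 (7 with an unadjusted p under 0.05, and 1 by DESeq2) and 0 of the 4 (1 and 0).

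Between diets in WT, 5 of the 44 genes passed, 4 higher and 1 lower on HFD. Cubn, which encodes the endocytic receptor cubilin that takes up vitamin B12 with intrinsic factor in the ileum and vitamin D with its carrier in the kidney, rose from 1250 ± 67.4 to 2710 ± 479 CPM (SD, n = 3; log2 fold change 1.11, SE 0.25, edgeR adjusted p = 0.0175). Cyp3a25 rose from 22.2 ± 0.334 to 54 ± 6.91 CPM (1.28, adjusted p = 0.00202). Ncor1, a corepressor that binds unliganded nuclear receptors, rose by 0.46 (adjusted p = 0.00568) and Cnnm2, a gene of magnesium handling, by 0.49 (adjusted p = 0.0314). Slc41a3, a solute carrier gene of the magnesium transporter family, fell from 16.3 ± 0.655 to 11.5 ± 2.01 CPM (-0.51, adjusted p = 0.016).

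In KO, 4 of the 44 passed, 2 in each direction. Slc41a3 fell from 13.4 ± 1.33 to 9.46 ± 0.964 CPM (SD, n = 3; log2 fold change -0.51, edgeR adjusted p = 0.0246) and Ncor1 rose from 220 ± 23.1 to 292 ± 23.2 CPM (0.41, adjusted p = 0.0158). Cldn2, a claudin that forms cation-permeable paracellular pores, rose from 137 ± 10.9 to 176 ± 13.6 CPM (0.36, adjusted p = 0.0119). Cyp3a11 fell from 22.1 ± 13.4 to 3.89 ± 0.156 CPM (-2.50, adjusted p = 0.0125). In both genotypes all HFD libraries were below all chow libraries for Slc41a3, as they were above for Ncor1. The shares called over all genes were 13.4% in WT and 8.2% in KO, and the medians of the 44 were 0.13 and 0.16 against 0.01 over all genes in each.

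Of these 9 calls, 7 were lost in some fit that left out a single library. The fold changes kept their sign in all 12 such fits, from 0.965 to 1.198 for Cubn, 0.405 to 0.543 for Cnnm2 and -0.638 to -0.403 for Slc41a3 in WT. In KO they ran from -0.591 to -0.428 for Slc41a3, 0.31 to 0.475 for Ncor1, 0.306 to 0.425 for Cldn2 and -2.925 to -2.028 for Cyp3a11. In WT, Ncor1 and Cyp3a25 passed in each of 12 fits that left out 1 library. Cubn lost its call without WT chow 1, 2 or 3 or WT HFD 3 (adjusted p 0.057 to 0.0655), Cnnm2 without WT chow 1, 2 or 3, KO chow 3 or WT HFD 2 or 3 (0.0514 to 0.129), and Slc41a3 without WT chow 1 or 2 (0.0552 to 0.0569). In KO, Slc41a3 lost it without KO chow 1 or 3 or KO HFD 1 or 2 (0.0594 to 0.0888), Ncor1 without KO chow 1 or 3 or KO HFD 3 (0.0626 to 0.0756), Cldn2 without KO chow 1 or 3 (0.051 to 0.0828) and Cyp3a11 without KO HFD 2 (0.0542). Without WT chow 1 and KO chow 3 together, Cyp3a25 in WT still passed (0.0294) and the other 8 calls did not (0.068 to 0.175). With the proximal score as a covariate none of the 5 WT calls passed (0.126 to 0.545), while Cyp3a11 (0.00139) and Cldn2 (0.0374) still passed in KO.

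**Figure D4:**
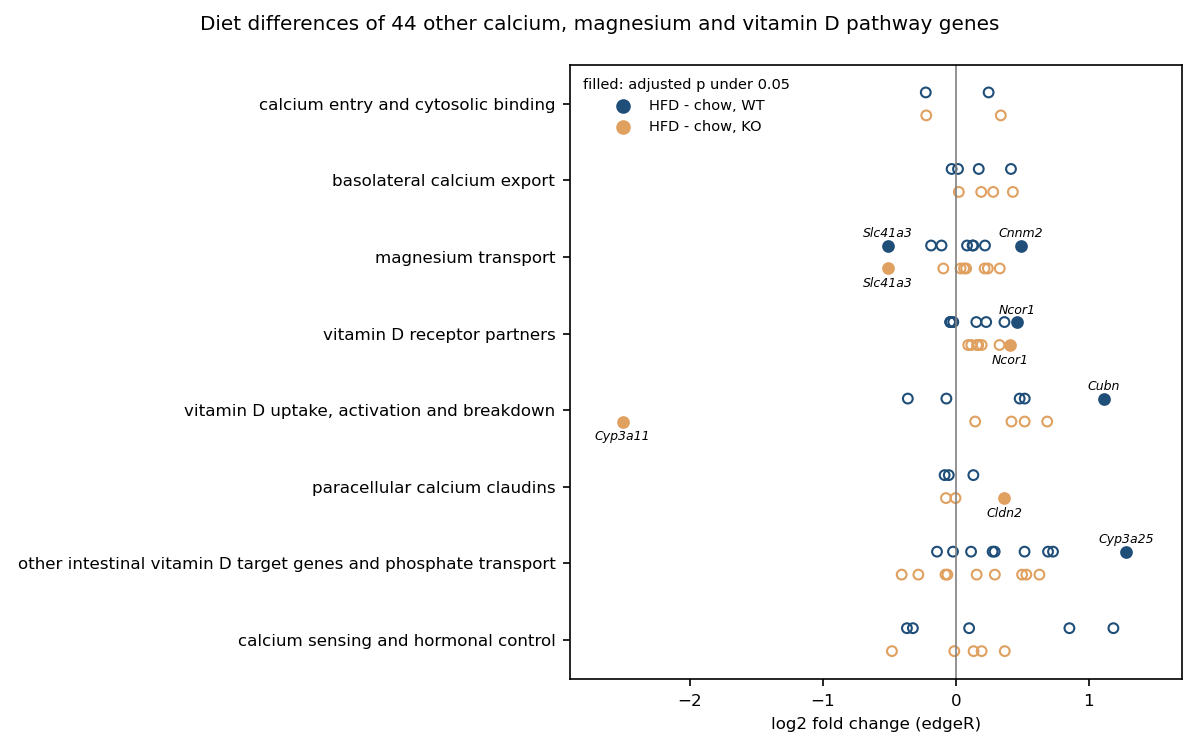
Log2 fold change of HFD against chow for the 44 tested pathway genes, grouped by function, in WT (upper points of each row) and KO (lower points). Filled points passed the test, 5 in WT and 4 in KO, and Slc41a3 and Ncor1 are filled in both.

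Abundant genes of these groups that did not pass in either diet comparison had the following differences. Cacna1d, an L-type calcium channel gene, had a log2 fold change of 0.25 in WT and 0.34 in KO. Trpm7, the ubiquitous relative of Trpm6, had 0.08 and 0.06, and Cnnm4, which exports magnesium at the basolateral side, -0.19 and -0.09. Rxra, the retinoid X receptor gene shared by VDR and PPARA, measured 155 ± 1.96 CPM in WT chow, 166 ± 21.4 in KO chow, 181 ± 24.7 in WT HFD and 185 ± 17 in KO HFD (SD, n = 3 each). Slc34a2, the intestinal phosphate cotransporter gene, had 0.29 and 0.53, the claudin genes Cldn15 and Cldn12 had -0.08 and -0.05 in WT and 0.00 and -0.07 in KO, and Prlr, the prolactin receptor gene, had 0.10 and 0.13. Dhcr7, whose enzyme draws the vitamin D precursor toward cholesterol, had -0.07 and 0.15.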

How the data were processed

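Total RNA from intestine was made into stranded libraries, per the labels' protocols. The authors deposited expected counts per gene, estimated reads that need not be whole and were not scaled between libraries. Trimmomatic, STAR, Picard, RSEM and mm10 are named in the submitters' processing notes without versions or roles. Annotation release and strand setting: not given in the sources used here. IDs were matched to symbols, exon lengths and mm10 coordinates through GENCODE vM21 (47224 of 47643 matched), which may not be the authors' release.

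Counts were rounded and fitted in edgeR 4.0.16 under R 4.3.3 (TMM, filterByExpr, robust quasi-likelihood F test, all 12 libraries in one fit of 4 group means). Of all genes, 17602 passed the filter, and Benjamini-Hochberg adjustment ran over these (threshold 0.05). SEs were derived from the F statistic. CPM used TMM-scaled library sizes, so that 1 CPM stood for 32.7 to 52.8 counts. Scores are means of centred log2 of CPM plus 0.5. Likeness was ranked among genes with mean log2 CPM of at least 1 and an established symbol.

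The genes and lists were chosen with earlier results of these data known. The named genes were the 6 genes, pathway genes called in a comparison, up to 2 uncalled abundant genes per list, and the 5 (S100g) or 3 genes of nearest pattern, and Slc30a10, Atp2b4 and genotype values of Cyp3a11 and Cyp3a25 were singled out after their values were seen. Some genes that this rule names are not reported here. Other settings were DESeq2 1.42.0, its size factors, other filters, fewer groups, a replicate block, left-out libraries and a marker score as covariate. The smooth muscle score was added after seeing the data.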

Additional observations from a re-analysis of the deposited data

Results flagged for a closer look

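Ncoa3, which encodes a coactivator of nuclear receptors, was the pathway gene whose libraries separated in opposite directions between groups. KO lay below WT on chow (log2 fold change -0.13) and above WT on HFD (0.08), and HFD lay below chow in WT (-0.04) and above chow in KO (0.17), with no overlap in any of the 4 comparisons. Groups did not overlap for 22.1%, 18%, 37.9% and 25.8% of all tested genes in these comparisons, and Ncoa3 was picked from 44. None of the 4 differences passed edgeR's test (adjusted p 0.129 to 0.716), and the genotype by diet term did not either (0.21, SE 0.09, adjusted p = 0.769).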

How the results depend on the processing

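For KO against WT on chow, the count of called pathway genes (0) was 3 by DESeq2, 1 with DESeq2 size factors, 2 with a filter of 50 counts in 3 libraries and 0 to 5 when each library was left out. On HFD, the count of called genes in the main set (1, S100g) was 0 with only the HFD groups fitted and 2 with the smooth muscle score, and the pathway count (0) was 2 by DESeq2 and 3 with that score, under which S100g had a log2 fold change of 0.84. For HFD against chow in WT, the main set (2) gave 1 without the filter, with the muscle score or without WT chow 1 and KO chow 3 together, 0 with the proximal score and 1 to 2 over left-out libraries. The pathway count (5) was 11 with only the WT groups, 0 with the proximal score, 3 with the muscle score, 1 without both chow libraries and 2 to 8 over left-out libraries. In KO, the main set (0) gave 1 by DESeq2, with the 50-count filter or with the muscle score and 0 to 1 over left-out libraries. The pathway count (4) was 8 by DESeq2, 0 with only the KO groups, 2 with the proximal score, 12 with the muscle score, 0 without both chow libraries and 1 to 8 over left-out libraries. For the interaction the pathway count (0) was 1 by DESeq2 and 0 to 1 over left-out libraries. The cause was not tested. Signs turned for several uncalled values. Vdr in KO against WT on HFD (-0.031) was 0.275 with the muscle score and up to 0.06 over left-out libraries. S100g between diets in KO (-0.033) reached 0.04 with the proximal score and 0.037 without KO HFD 2. The interaction terms of Trpm6, Vdr and Atp2b1 also turned, at most to 0.871 and 0.375 (muscle score) and -0.065 (without WT HFD 1). On chow, Vdr in KO against WT was 0.003 with the 50-count filter and -0.082 to 0.049 over left-out libraries (positive without KO chow 1). Between diets in WT, Vdr was -0.054 with the proximal and -0.073 with the muscle score, and Atp2b1 was 0.098 with the proximal score and -0.195 to 0.058 over left-out libraries (positive without WT HFD 1). In KO, Vdr was -0.071 to 0.16 over left-out libraries (-0.012 without KO chow 1 and -0.071 without KO HFD 3), and Atp2b1 was 0.004 with the 50-count filter, 0.065 and 0.291 with the proximal and muscle scores and -0.09 to 0.071 over left-out libraries (highest without KO HFD 2). Counts over all genes ranged from 1 to 517, 3 to 1541, 72 to 3415, 185 to 2648 and 0 to 60 for the 5 comparisons, against 22, 51, 2353, 1444 and 1. The labels do not say whether same-numbered libraries share an animal, litter or batch. Their deviations from the group means correlated at -0.17 to 0.257, and 4 of 18 pairs were above 0.1. With 3 libraries per group these values cannot settle whether anything but the number is shared. With the replicate block the main set kept counts of 0, 1, 2, 0 and 0, the pathway counts were 0, 0, 5, 6 and 0, and Trpm6 in WT was 1.17 (adjusted p = 0.0449). Depth limits Trpv6 and Cyp24a1, which had at most 1 and 6 counts in a library.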
